A study of Mus musculus with 4 samples.

Results

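The genes described here encode the subunits of the 3 nuclear RNA polymerases, of Mediator and of the general transcription factors. They are the protein-coding genes of the GENCODE vM21 annotation whose symbols begin with Polr1, Polr2, Polr3, Gtf2 or Gtf3, or with Med or Taf and a digit, and this rule gave 104 of 21911 genes. Methylated Pontin was mapped in wild-type mouse embryonic fibroblasts (MEFs) by chromatin immunoprecipitation and sequencing (ChIP-seq), with an antibody against Pontin that carries methyl groups on its arginines. Normal media and glucose starvation were each sampled by a ChIP and by unprecipitated chromatin (input), 4 libraries in all. There was 1 library of each kind and no replicate, so no value below has a spread between cultures and no difference was tested. The ChIP under glucose starvation is the library described here. The ChIP in normal media was not analysed here, so nothing below says whether a peak arose with starvation. A gene was counted as having a peak when the centre of a peak lay within 2.5 kb of any of its transcription start sites (TSSs). The signal of a peak is its number of tags per 10000000 tags of the library. Tags are the authors' count of aligned paired-end reads, which is not always a whole number.

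RNA polymerase I transcribes the large ribosomal RNA, RNA polymerase II the messenger RNAs, and RNA polymerase III the transfer RNAs and other short RNAs. Each needs its own set of general factors to find a promoter, and these are TFIID and TFIIA to TFIIH for polymerase II, SL1 for polymerase I, and TFIIIC with its partners for polymerase III. Mediator bridges activators bound to DNA and polymerase II, and the TBP-associated factors (TAFs) are the subunits of TFIID, SL1 and, in part, the coactivator SAGA. Pontin is an ATPase of several chromatin remodelling and histone acetyltransferase complexes.

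Of the 104 genes, 42 had a methylated Pontin peak at a TSS (40.4%, 95% Wilson interval 31.5 to 49.99%), and 62 had none. Among all protein-coding genes the share was 17.1%, and among the 21807 genes outside the list it was 17.0% (16.5 to 17.5%). Promoters of the listed genes were somewhat richer in G and C than those of other genes, with a median of 57.2% against 54.8% in the 1 kb around the 5′ end of the gene. Other genes whose promoter GC content lay within 1 percentage point of each listed gene had a peak in 20.9% of cases, so 21.7 genes with a peak stood against the 42 found, a ratio of 1.94. The intervals cover counting error only, and genes of 1 library are not replicates. The choice of like genes changed the size of the gap. When genes were matched on GC content and on the ratio of observed to expected CpG dinucleotides, the share among other genes was 30.7%. This match could be made for 103 of the listed genes, with 4 to 438 like genes each, and 41 of these had a peak (39.8%, 30.9 to 49.5%), a ratio of 1.295 with a lower bound close to the share of the other genes. The median CpG ratio was 0.775 in the listed genes and 0.550 in the others. Matching on GC content and the number of annotated TSSs gave 23.1%, and matching on GC content and the presence of a neighbouring gene's TSS within 1 kb gave 23.2%. These last 3 matches were chosen after the data had been seen.

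The shares differed between complexes, but the groups are small and the intervals of all 10 groups overlapped. Mediator had peaks at 13 of 30 genes (43.3%, 27.4 to 60.8%), RNA polymerase I at 4 of 5 (80.0%, 37.6 to 96.4%), RNA polymerase II at 4 of 13 (30.8%, 12.7 to 57.6%) and RNA polymerase III at 3 of 10 (30%, 10.8 to 60.3%). Among the factors, TFIIA, B, E, F and H together had peaks at 5 of 13 genes (38.5%, 17.7 to 64.5%), the TAFs of TFIID at 4 of 17 (23.5%, 9.56 to 47.3%), the TAFs found in SL1 at 2 of 4 (50%, 15 to 85%) and TFIIIA with TFIIIC at 5 of 7 (71.4%, 35.9 to 91.8%). Both TAF paralogues that belong to SAGA alone, Taf5l and Taf6l, had a peak, and none of the 3 TFII-I genes did. For Mediator, RNA polymerase I, the SAGA TAFs and TFIIIA with TFIIIC, the interval lay above the share in genes of like GC content, which was between 19.5% and 21.0% for these groups. For RNA polymerases II and III, the TFIID and SL1 TAFs, the TFIIA, B, E, F and H genes and the TFII-I genes, the interval held that share. The CpG ratio was not matched for single complexes. For the whole list that match gave a share of 30.7% among other genes. This share is within the Mediator interval and below the intervals of RNA polymerase I, the SAGA TAFs and TFIIIA with TFIIIC. The positions against genes of like GC content were also not stable for each group. With peaks of the upper part by score, Mediator fell to 6 of 30 genes (20%, 9.51 to 37.3%), an interval that held the 11.5% of genes of like GC content. Without its 7 genes on chromosome 11, all of which had a peak, 6 of 23 remained (26.1%, 12.6 to 46.5%), a split made after the values had been seen. With peaks at least 8-fold over input, RNA polymerase I fell to 2 of 5 (40%, 11.8 to 76.9%, against 11.99%). Of the SAGA TAFs, 1 of 2 had a peak with a limit of 1 kb, with TSSs of protein-coding transcripts only or with peaks at least 8-fold over input, and 0 of 2 when a peak counted only for the nearest gene, and each of these intervals held the share of like genes. The interval of TFIIIA with TFIIIC stayed above that share in the 6 settings tried, where its own share was 42.9 to 71.4%.

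**Figure D1:**
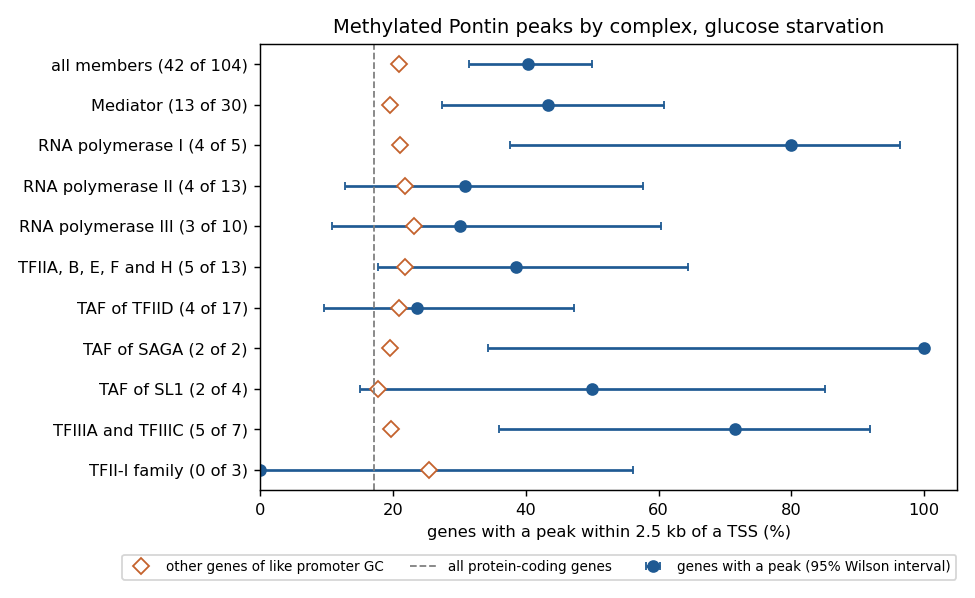
Share of genes whose TSS has a methylated Pontin peak at 2.5 kb or less (x axis, %) for all listed genes and for each complex, with 95% Wilson intervals that cover counting error only. Diamonds give the share in other genes of like promoter GC content, and the dashed line gives the 17.1% of all protein-coding genes, and the interval of the RNA polymerase I genes lies above both while that of the TFIID TAFs spans both.

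The peak with the most tags was taken in each of the 7 main complexes, and within its central 300 bp the longest stretch of up to 200 bp without an annotated exon is printed here, to show the DNA under these peaks. Sequences are from GRCm38 (mm10), read 5′ to 3′ on the plus strand, and capitals mark a match to one of the 9 motifs described further on, where the stretch held one. The stretch at Polr2m is the first part of its upstream DNA and holds CCGGAA, that at Polr3b is upstream of its TSS and holds CCAAT, and the other 5 hold none of the motifs. This covers the printed letters alone. The central 200 bp of the Med16, Polr2m and Gtf3c6 peaks hold the SP letters GGGCGG outside the printed stretches. Of the Taf5 stretch 83.0% is masked as repeat in the assembly, of the Gtf2h4 stretch 43.0% and of the Polr3b stretch 21.5%.
Med16 (chr10:79908924-79908970): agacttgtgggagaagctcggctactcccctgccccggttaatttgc
Polr1a (chr6:71909240-71909301): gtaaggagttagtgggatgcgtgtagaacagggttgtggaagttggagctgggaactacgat
Polr2m (chr9:71485936-71485969): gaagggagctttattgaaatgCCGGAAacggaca
Polr3b (chr10:84621943-84622142): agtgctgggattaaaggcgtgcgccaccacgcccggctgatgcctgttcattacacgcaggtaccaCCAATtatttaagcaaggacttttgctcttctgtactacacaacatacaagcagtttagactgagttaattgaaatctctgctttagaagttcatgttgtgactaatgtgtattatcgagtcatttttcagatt
Gtf2h4 (chr17:35673944-35674143): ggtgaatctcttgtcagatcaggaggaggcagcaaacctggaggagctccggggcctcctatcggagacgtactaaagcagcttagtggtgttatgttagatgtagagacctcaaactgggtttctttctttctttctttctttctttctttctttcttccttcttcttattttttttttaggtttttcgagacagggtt
Taf5 (chr19:47067044-47067243): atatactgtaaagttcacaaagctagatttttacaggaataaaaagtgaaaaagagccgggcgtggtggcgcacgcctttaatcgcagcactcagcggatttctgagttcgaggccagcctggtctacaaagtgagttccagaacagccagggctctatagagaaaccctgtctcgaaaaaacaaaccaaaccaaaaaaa
Gtf3c6 (chr10:40257374-40257520): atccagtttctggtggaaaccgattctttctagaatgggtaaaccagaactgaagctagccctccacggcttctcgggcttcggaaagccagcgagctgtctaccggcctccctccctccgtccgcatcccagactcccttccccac

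Mediator had the most genes with a peak. The highest signal was at Med16, a subunit of the tail module that contacts activators, with 24.1 tags per 10000000, which is 50.04 tags before scaling (95% Poisson interval 37.2 to 65.97). This peak at chr10:79908581-79909061 was centred 3 bp from a TSS, in a coding exon. The study's methods do not name the culture condition of the input that the authors used. The peak was 10.4-fold above that input and 6.55-fold above the surrounding 10 kb, and had more tags than 96.5% of the other promoter peaks. It also lay within 2.5 kb of a TSS of Gm26602. Med17, a core subunit of the head module that touches polymerase II, came next with 20.7 tags per 10000000 (43.0 tags, 31.1 to 57.9). The remaining 11 Mediator peaks had 11.3 to 16.9 tags per 10000000, and their Poisson intervals overlap one another.

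By module, 4 of 7 head genes, 4 of 9 middle genes, 4 of 9 tail genes and 1 of 4 kinase module genes had a peak. In the head module these were Med17, Med11 with 16.4 tags per 10000000, Med6 with 14.0 and Med22 with 13.7. Med22 faces Rpl7a, a gene for a large ribosomal subunit protein, and its peak was centred 161 bp from a TSS of Rpl7a and 490 bp from its own. The middle module had peaks at Med9 (16.9 tags per 10000000), at Med1 (16.6), the subunit that binds nuclear receptors, at Med31 (14.9) and at Med7 (11.3). In the tail, the peaks besides that of Med16 were at Med30 with 15.7 tags per 10000000, Med27 with 12.8 and Med24 with 11.3. The kinase module peak was at Med13, the subunit that tethers the kinase to core Mediator, with 13.2 tags per 10000000, while its paralogue Med13l and the pair Med12 and Med12l had none. Med14, the backbone that connects the modules, had no peak. The modules' shares cannot be told apart at these numbers, since the interval of the head genes was 25.1 to 84.2% and that of the kinase module 4.56 to 69.9%.

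RNA polymerase I had a peak at each of its genes in the list except Polr1e. Polr1a, the largest subunit, had 16.9 tags per 10000000 (35.1 tags, 24.5 to 48.8) in a peak at chr6:71908912-71909392, 83 bp downstream of a TSS in the untranslated part of an exon, 21.8-fold above the input. Polr1b, the second-largest subunit, had 13 tags per 10000000. Polr1c and Polr1d, which serve in both polymerase I and polymerase III, had 16.1 and 14.9 tags per 10000000. Their 4 values lie within one another's Poisson intervals. The peaks at Polr1a, Polr1c and Polr1d each lay within 2.5 kb of a TSS of a second protein-coding gene, which was Ptcd3, Yipf3 and Lnx2.

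Among the polymerase II genes the peak at Polr2m stood out. Polr2m encodes a protein that associates with the polymerase rather than a core subunit, and its peak had the highest signal of all the listed genes, 25.3 tags per 10000000 (52.5 tags, 39.3 to 68.8). It lies at chr9:71485580-71486060, 85 bp downstream of a TSS in a coding exon, ranks 93 of all 4311 peaks by tags, and was 65.4-fold above the input and 5.30-fold above the surrounding 10 kb. Dividing the deposited signal by this fold leaves an input term of 0.387 tags per 10000000, the same low level as behind the folds of 33.0 to 53.6 at Med17, Med1, Med11, Med27, Gtf2f1 and Taf7. Polr2b, the second-largest subunit, had 16.4 tags per 10000000, and Polr2j had 15.7. Polr2a, the largest subunit and bearer of the C-terminal repeat, had no peak within 2.5 kb, and its nearest peak was 37.3 kb away. Of the 5 subunits that all 3 polymerases share, Polr2k had a peak (17.1 tags per 10000000), and Polr2e, Polr2f, Polr2h and Polr2l had none. Polr2c, Polr2d, Polr2g and Polr2i also had none.

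For RNA polymerase III, Polr3b, the second-largest subunit, had 16.9 tags per 10000000 (35.1 tags, 24.5 to 48.8) in a peak at chr10:84621803-84622283, 249 bp upstream of a TSS and 21.8-fold above the input. Polr3f had 15.7 tags per 10000000 and Polr3d 12.5. The largest subunit gene, Polr3a, had no peak, and Polr3e, the partner of Polr3d, and the paralogues Polr3g and Polr3gl were also among the 7 genes without one. The nearest peak of Polr3gl, with 14.0 tags per 10000000, was outside the limit, 3.10 kb from the nearest of its TSSs. It lay downstream of the gene and within the limit of Gm16253. For polymerases I, II and III alike the gene of the second-largest subunit had a peak, whereas of the largest subunits that of polymerase I alone did.

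In the TFIIA, B, E, F and H group, Gtf2h4, a subunit of TFIIH that anchors one of its helicases, was the only listed gene with more than 1 peak. The stronger one, at chr17:35673804-35674284, lay 305 bp upstream of a TSS with 22.9 tags per 10000000 (47.6 tags, 35.0 to 63.1) and was 11.8-fold above the input. The weaker one, at chr17:35667013-35667493, had 16.9 tags per 10000000, was 4.85-fold above the input, the lowest fold among the listed genes, and lay downstream of the gene, 6486 bp from its 5′ end. Its centre was 287 bp from a TSS of the neighbouring gene Vars2 and 1507 bp from the nearest TSS of Gtf2h4. Of the other factors, Gtf2f1, the large TFIIF subunit, had 17.1 tags per 10000000, and Gtf2e1, the large TFIIE subunit, had 16.4. Gtf2a2 of TFIIA and Gtf2h1 of TFIIH had 14.7 and 12.3. Gtf2b, which places polymerase II on the promoter, had no peak, nor had Gtf2a1, Gtf2a1l, Gtf2e2, Gtf2f2, Gtf2h2, Gtf2h3 and Gtf2h5. Gtf2h3 had a peak of 15.7 tags per 10000000 downstream of the gene, 4.10 kb from the nearest of its TSSs and outside the limit. In the TFII-I family, Gtf2i, Gtf2ird1 and Gtf2ird2 had none (0 of 3, 0 to 56.2%).

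The TFIID TAFs had a share of genes with a peak near that of genes of like GC content, 23.5% against 20.8%. Taf5, a scaffold subunit, led with 17.6 tags per 10000000 (36.6 tags, 25.7 to 50.5) in a peak at chr19:47066904-47067384, 5.68-fold above the input. Taf4b, the paralogue of Taf4, and Taf7, which binds Taf1, had 16.1 each, and Taf9, a histone-fold subunit that is also part of SAGA, had 14.0. All 4 peaks lay upstream of the TSS, by 602 bp at Taf5, 695 bp at Taf4b, 681 bp at Taf7 and 902 bp at Taf9, farther out than the median of 285 bp over the listed genes. The centre of the Taf9 peak was closer to a TSS of another gene, at 302 bp, in a region with Ak6 and Rad17. Taf1, the largest subunit, and Taf2, Taf3, Taf4, Taf6, Taf7l, Taf8, Taf9b, Taf10, Taf11, Taf12, Taf13 and Taf15 had no peak. Taf4 had one 3.87 kb upstream, with 11.8 tags per 10000000.

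Taf6l and Taf5l stand in for Taf6 and Taf5 in SAGA, a histone acetyltransferase complex. The peak of Taf6l, at chr19:8774402-8774882, had 24.1 tags per 10000000 (50.04 tags, 37.2 to 65.97) and was 6.92-fold above the input. It was the peak farthest from a TSS of its own gene that still met the limit, at 2320 bp, in a coding exon 11775 bp from the 5′ end of the gene and 175 bp from a TSS of Tmem179b. Taf5l had 18.5 tags per 10000000 in a peak 401 bp upstream, shared with Urb2. Of the SL1 TAFs, which load polymerase I on ribosomal DNA, Taf1d had 14.0 tags per 10000000 and Taf1a had 12.0, and Taf1b and Taf1c had no peak.

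Peaks lay at all listed genes of the polymerase III factors except Gtf3c1 and Gtf3c2, the 2 largest subunits of TFIIIC. The highest was at Gtf3c6, with 18.3 tags per 10000000 (38.0 tags, 26.9 to 52.2) in a peak at chr10:40257284-40257764, 38 bp from a TSS and 7.89-fold above the input. Gtf3c4 had 16.4, Gtf3c5 had 14.2 and Gtf3c3 had 11.8. Gtf3a, the zinc finger protein that binds the 5S ribosomal RNA gene, had 14.2. The peak at Gtf3c5 was centred 13 bp from a TSS, and that of Gtf3c4 was within 2.5 kb of a TSS of Ddx31.

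**Figure D2:**
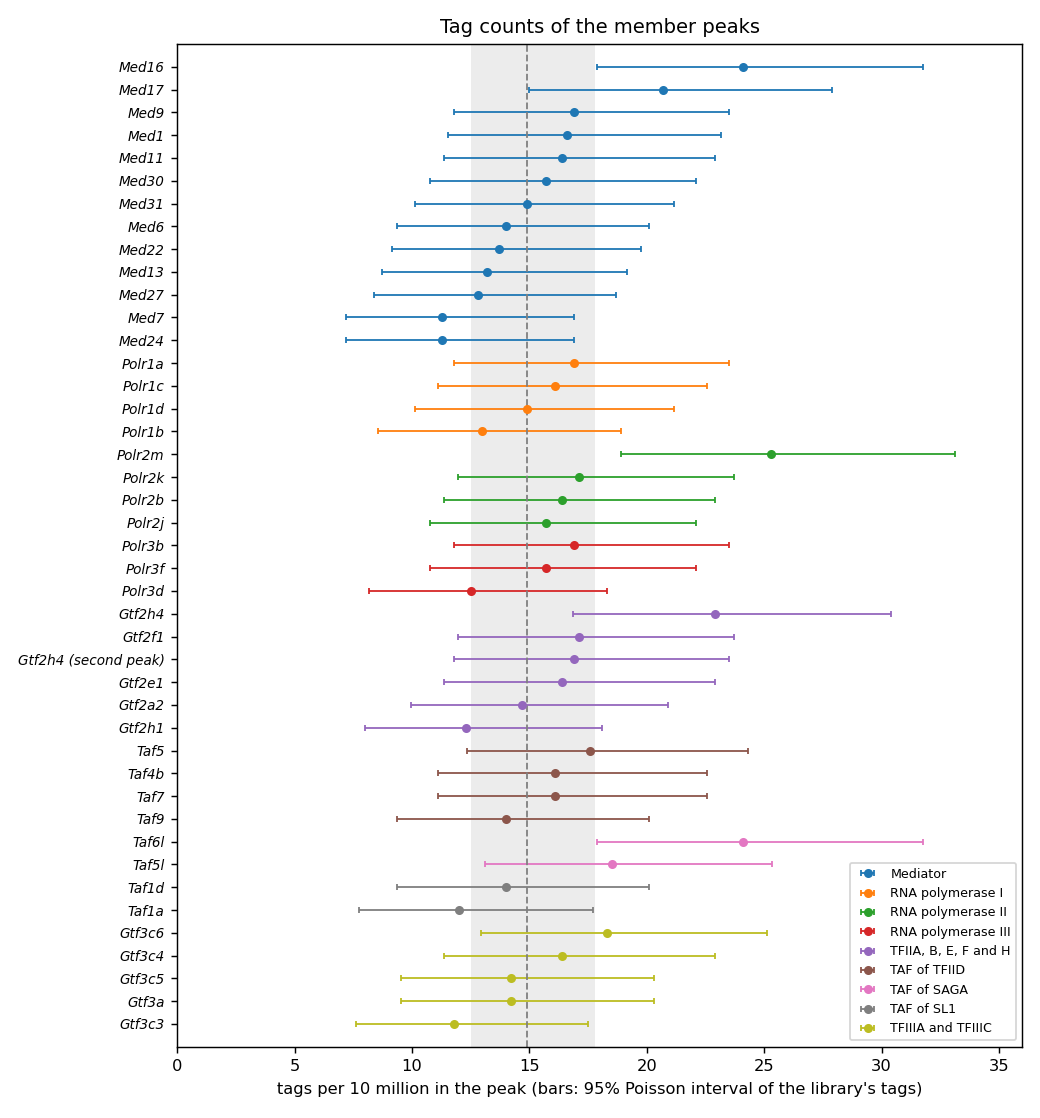
Tags per 10000000 (x axis) in each of the 43 peaks at the listed genes, ordered by complex and by signal, with 95% Poisson intervals of the tags in the library (counting error only). The dashed line is the median of the other promoter peaks (14.9) and the grey band their interquartile range (12.5 to 17.8), and the points of Polr2m, Med16, Taf6l, Gtf2h4 and Med17 lie to the right of the band by the widest margin.

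Where they were present, these peaks were about as strong as those of other genes. The 43 peaks had a median of 16.1 tags per 10000000, with a 95% interval of the median of 14.2 to 16.6, and ranged from 11.3 to 25.3. The 3170 peaks within 2.5 kb of a TSS of other protein-coding genes had a median of 14.9 (14.7 to 14.9) and ranged from 8.19 to 34.2. Signal differed between chromosomes, from a median of 11.6 on chromosome 7 to 20 on chromosome 8 among the other promoter peaks of the chromosomes in question. Against the median of its own chromosome the typical peak of a listed gene had a ratio of 1.02, and 23 of 43 peaks were above it. The median fold over input was 9.19 against 9.10 in other promoter peaks, and 16 peaks (37.2%) were under 8-fold, against 42.1%. So the share of genes with a peak was higher in the list than in other genes, whereas the tags in a peak differed little at the median. With GC content and the CpG ratio both matched, the gap in that share narrowed to 39.8% (30.9 to 49.5%) against 30.7%.

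The peaks sat close to the start sites. Peak centres lay a median of 285 bp from their gene's nearest TSS, with quartiles of 177 and 466 bp, against 273 bp (127 to 473 bp) for other genes. Within 500 bp lay 34 of 43 peaks (79.1%, against 77.8%), and beyond 1 kb lay 2 (4.65%, against 5.57%), those of Taf6l and the weaker one of Gtf2h4. The sides were even, with 22 peaks upstream and 21 downstream of the TSS. By annotation, 21 peak centres were upstream of the gene, 7 in a coding exon, 7 in an intron, 5 in the untranslated part of an exon, 2 in an exon of a non-coding transcript and 1 downstream of the gene. The members of a complex did not share a position, except that the TFIID peaks were all upstream. Of Mediator's 13 peaks, those of Med9, Med1, Med11, Med22, Med13 and Med24 were centred 189 to 490 bp upstream, that of Med16 was on the TSS, and those of Med17, Med30, Med31, Med6, Med27 and Med7 were 109 to 302 bp downstream.

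**Figure D3:**
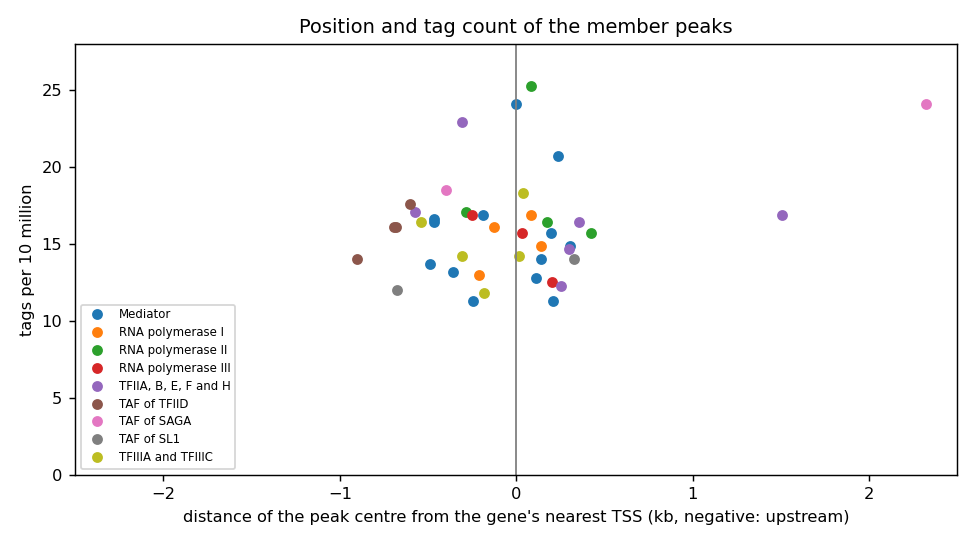
Tags per 10000000 (y axis) of each of the 43 peaks against the distance of its centre from the nearest TSS of its gene in kb (x axis, negative values upstream), coloured by complex. The 4 peaks of TFIID TAFs lie 602 to 902 bp upstream, and the 2 points beyond 1 kb are the weaker Gtf2h4 peak and the Taf6l peak.

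Some of these peaks cannot be assigned to 1 gene. Of the 43, 16 (37.2%) were also within 2.5 kb of a TSS of another protein-coding gene, against 30.2% of the pairs of a peak and a gene outside the list. When a peak was counted only for the gene with the nearest TSS, 34 of the 104 genes kept one (32.7%), against 14.4% of other genes and 17.6% of genes of like GC content. The genes lost were Med22, Polr1c, Gtf2f1, Taf9, Taf6l, Taf5l, Taf1d and Gtf3c4, so that neither SAGA TAF kept its peak. A neighbouring TSS was common at these genes, as 31 of 104 (29.8%) had a TSS of another protein-coding gene within 1 kb of their 5′ end, against 13.7% of other genes. Among genes with such a neighbour, 13 of 31 listed genes had a peak (41.9%, 26.4 to 59.2%), against 35.1% of other genes. Among genes without one, it was 29 of 73 (39.7%, 29.3 to 51.2%), against 14.1%. The gap to other genes was thus wider at promoters without a close neighbour, and this difference was not tested. The other genes in this split were not matched on GC content or on the CpG ratio.

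The gap was also examined by base composition. No listed gene had a promoter under 45% GC. Between 45 and 50% GC, 8 of 14 listed genes had a peak (57.1%, 32.6 to 78.6%), against 9.77% of other genes, and between 50 and 55% it was 8 of 27 (29.6%, 15.9 to 48.5%) against 17.7%. Between 55 and 60% it was 13 of 28 (46.4%, 29.5 to 64.2%) against 23.6%, between 60 and 65% 7 of 22 (31.8%, 16.4 to 52.7%) against 25.7%, and from 65% on 6 of 13 (46.2%, 23.2 to 70.9%) against 23.6%. The gap had no steady course with GC content, and the intervals of the listed genes overlap between all bins. Listed genes with and without a peak had nearly the same promoter composition, with median GC contents of 57.2 and 57.0% and median CpG ratios of 0.779 and 0.775.

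**Figure D4:**
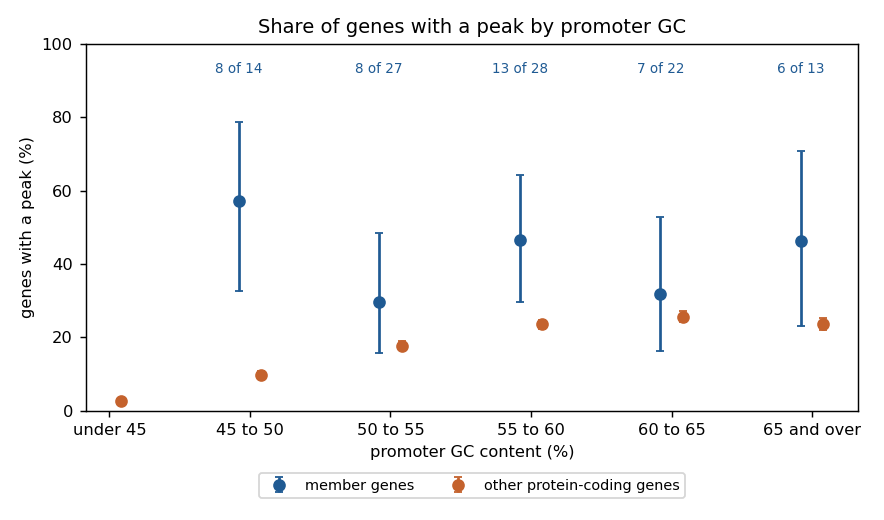
Share of genes with a peak (y axis, %) by promoter GC content (x axis, %) for the listed genes and for other protein-coding genes, with 95% Wilson intervals and the counts of listed genes above. The share of other genes climbs from 2.74% under 45% GC to 25.7% between 60 and 65%, and that of listed genes is highest between 45 and 50%.

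The 9 motifs were searched on both strands in the central 200 bp of the peaks, and none of them was part of another. The SP letters GGGCGG were in 10 of 43 peaks (23.3%), against 26.4% of the other promoter peaks, and the CCAAT box (CCAAT) was also in 10 (23.3%), against 17.2%. The ETS letters CCGGAA were in 5 (11.6%), against 10.8%. The peak of Polr2m is among these through another match, as the capitals in its sequence above lie outside its central 200 bp. TATAAA was in 4 peaks (9.30%, against 5.24%), the E-box CACGTG in 3 (6.98%, against 4.23%), the NRF1 letters GCATGCGC in 2 (4.65%, against 0.820%) and the E2F letters GCGGGAA in 1 (2.33%, against 4.83%). The YY1 letters AAGATGG and the FOXO letters GTAAACA, the core of FOXO binding sites, were in none of the 43 central windows (Wilson upper bound 8.20%), against 4.98% and 1.77%. In the whole peak of 481 bp, GTAAACA was in 3 (6.98%, against 4.35%). Both NRF1 matches were at Mediator genes, Med22 and Med27. For each motif but NRF1 the share in other promoter peaks was within the interval of the listed genes, and for NRF1, with 2 peaks, it was below the lower bound of 1.29%. In the whole peak NRF1 was in 3 (6.98%, 2.40 to 18.6%, against 4.07%), an interval that holds the other share. The direction against other peaks turned with the window for TATAAA (9.30 against 13.03% in the whole peak), the E-box (9.30 against 12.1%) and E2F (16.3 against 11.2%). A match here is a run of letters and no measured binding site. The peaks had a median GC content of 56.1%, against 56.3% in other promoter peaks, and a median of 8.94% of their bases was masked as repeat, against 6.24%.

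Other genes of the same machinery have symbols that the rule does not catch, and 56 of them were taken in 7 lists. Of these, 19 had a peak (33.9%, 22.9 to 47.0%), against 21.5% of other genes of like GC content. The CpG ratio was not matched here. The kinase module partners Cdk8 and Ccnc had peaks of 22.4 and 11.1 tags per 10000000, and Cdk19, the paralogue of Cdk8, had none, so that with Med13 the kinase module had 3 genes with a peak. TFIIH had 2 further peaks, at its kinase Cdk7 (16.9 tags per 10000000) and its helicase Ercc2 (14.2), and polymerase I had 3, at Rrn3, which links it to SL1 (14.4), Twistnb (13) and Cd3eap (10.4). For polymerase III, 2 of 10 genes had a peak, Snapc2 (21.9 tags per 10000000) and Crcp (15.9), and the TFIIIB genes Brf1, Brf2 and Bdp1 had none. TBP itself, the TATA-binding protein that serves in all 3 systems, and its paralogues had no peak (0 of 3). The elongation list had peaks at 8 of 25 genes (32.0%), with the highest at Ssrp1, a subunit of the histone chaperone FACT, at 24.6 tags per 10000000, followed by Aff1 (19.5), Larp7 (17.8), Nelfb (17.8), Supt6 (14.7), Hexim1 (14.0), Supt5 (12.0) and Nelfcd (11.8). In the mitochondrial list, Tfb1m and Tfb2m had peaks of 13.2 and 11.1 tags per 10000000, and Polrmt, the mitochondrial polymerase, and Tfam had none.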

How the data were processed

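Wild-type MEFs under glucose starvation gave the ChIP library analysed here, with 20765512 tags. Per the study's methods, the authors aligned paired-end reads to GRCm38 (mm10) with Bowtie2 (version not given in the sources used here). They called peaks with HOMER 4.7.2 against what the methods call control input. Its culture condition is not named there and was not worked out here, which bears on each fold over input. Per the file header, the authors kept peaks at a false discovery rate of 0.001 (18 tags), 4-fold or more above input and the surrounding 10 kb, with p at most 0.0001, so weaker regions are not seen. They removed 3822 and 5347 of 13480 putative peaks by these limits, leaving 4311. The deposited signal is the tag count per 10000000 tags. The fold over input and over the surroundings are ratios that the authors computed. The authors' peak score was used to take the upper part of the peaks. The name of 1 further tag column matched no library, and it was not used.

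Peak centres were compared with the TSSs of all transcripts in GENCODE vM21. Promoter GC content was taken 500 bp either side of the gene's 5′ end. Tags in the library were computed from the signal and the total, and the median peak held 29.5 of them, which limits the precision of each value. Shares have Wilson intervals and tags exact Poisson intervals, at 95% and for counting error only, since reads without molecular identifiers are not independent molecules. No test was run. The counting of genes by distance, the GC matching and the Wilson intervals were tested on simulated data. Every listed gene with a peak is named, and the strongest per complex, those over 1 kb from the TSS and those with more than 1 peak are given with positions. The genes, complexes, further lists and motifs were chosen with earlier results of these data known. Alternatives covered distance limits of 1 and 5 kb, protein-coding transcripts only, peaks at least 8-fold over input, peaks with a score of 26 or more, the nearest gene only, and other GC windows and matches. Scripts ran in Python 3.11.15 with pandas 2.3.3, NumPy 2.4.6, matplotlib 3.10.9 and SciPy 1.17.1.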

Additional observations from a re-analysis of the deposited data

How the results depend on the processing

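Of 101 values recomputed under another setting, 88 moved by less than their counting interval and 13 by more. The intervals of small complexes are wide, so the count of 88 does not show stability. RNA polymerase I was counted there although its share went from 80% to 40% with peaks at least 8-fold over input. With peaks at least 8-fold over input, the share of listed genes with a peak was 26.0%, against 12.1% of genes of like GC content. With peaks of the upper score the values were 27.9% and 12.3%, and the share of Mediator genes was 20%. With a peak counted only for the nearest gene, a setting added for the complexes after the data had been seen, the share of SAGA TAFs was 0%. Fewer peaks enter the settings by fold and by score, and the ratio of the listed genes to genes of like GC content was 2.15 and 2.28 there. Matching the other genes also on the CpG ratio gave 30.7%, on the number of TSSs 23.1% and on a neighbouring TSS 23.2%, and these 3 matches were also added after the data had been seen. In the whole peak, which is longer than the central window, the ETS letters were in 32.6% of the peaks (other promoter peaks 31.6%), the E2F letters in 16.3% (11.2%), the SP letters in 51.2% (52.7%) and the CCAAT box in 44.2% (39.2%). Limits of 1 and 5 kb gave ratios of 2.001 and 1.957. No paired analysis was possible because there was 1 library per condition. With a median of 29.5 tags in a peak, a gene without a peak may hold signal under the authors' threshold.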

Other observations

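The Mediator genes with a peak were unevenly spread over the chromosomes, which was noticed after their values had been seen. All 7 Mediator genes on chromosome 11 (Med1, Med7, Med9, Med11, Med13, Med24 and Med31) had a peak, with 11.3 to 16.9 tags per 10000000, whereas 6 of the 23 on other chromosomes did (26.1%, 95% Wilson interval 12.6 to 46.5%). The 2 other listed genes on chromosome 11, Polr2a and Taf15, had none, and 18.9% of the chromosome's genes outside the list had one. Outside Mediator and chromosome 11, 29 of 72 listed genes had a peak (40.3%).

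Repeat-masked sequence was more frequent in some of the peaks. Over 20% of the bases were masked in 12 of 43 peaks (27.9%), against 17.5% of the other promoter peaks, and no base was masked in 11 (25.6%), against 26.8%. The most masked were the peaks of Taf5 (59.9%), Med1 (55.9%), Gtf3c3 (44.9%), Gtf2h4 (44.3%) and Polr1b (37.8%).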
